A study of Rattus norvegicus with 372 samples.

Results

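The genes described here are 9 members of the BCL2 family and its death receptor arm, *Bcl2l1*, *Mcl1*, *Bak1*, *Bid*, *Bcl2l11*, *Bmf*, *Pmaip1*, *Bik* and *Casp8*. They were taken by symbol, ignoring case, from the 20946 genes of the TempO-Seq whole transcriptome (WT) assay, in which each had 1 probe. *Bik* averaged 3.45 counts per well and fell short of the minimum of 10 counts, so the tests were run on 8 members among 10191 genes. The surrogate S1500+ (ST) assay of the same lysates held 7 of the members, all but *Bik* and *Pmaip1*, and served as a check. TempO-Seq ligates a pair of short probes on the RNA in a cell lysate and counts the ligated product, so the level of one gene cannot be ranked against that of another without knowing how well each probe works. Sums and ratios over several probes, where given, are compared only between wells.

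Freshly isolated hepatocytes of male Wistar rats in collagen sandwich culture were exposed for 24 h to 1 of 14 chemicals at a low and a high concentration, which gave 28 treatments. Controls received vehicle (0.5% DMSO) or culture medium alone, the group labelled media. The chemicals were also given in medium with 0.5% DMSO. Each batch used the hepatocytes of 1 rat, and the 3 wells of a treatment in a batch were technical replicates. The 2 batches were the only biological replicates, and they also differed in library preparation and sequencing run, so that rat and run cannot be told apart. Batch 1 had 3 vehicle wells, all on plate 4, and batch 2 had 6, with 3 on each of its plates. The concentrations, low then high, were 400 and 10000 µM for acetaminophen, caffeine, isoniazid and Valproic (the label used for valproic acid), 80 and 2000 µM for naproxen, 160 and 4000 µM for ranitidine, 16 and 400 µM for diclofenac, 12 and 300 µM for indomethacin, 18 and 450 µM for chloramphenicol, 4 and 100 µM for sulfasalazine, 8 and 200 µM for WY14643, 2.4 and 60 µM for simvastatin, 0.6 and 15 µM for ketoconazole, and 0.08 and 2 µM for doxorubicin.

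BCL2 family proteins decide whether the outer membrane of the mitochondrion is opened during apoptosis. BCL-xL (*Bcl2l1*) and MCL1 keep it closed by holding the pore-forming effector BAK (*Bak1*) and its relative BAX in check, and BH3-only proteins such as BID, BIM (*Bcl2l11*), BMF, NOXA (*Pmaip1*) and BIK tip that balance by binding the guardians or the effectors. Caspase-8 (*Casp8*) is the initiator caspase of death receptors and cleaves BID, and in hepatocytes this link to mitochondria is known to be needed for death receptor killing.

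Upstream sequences are shown for the 3 members that rose and the 1 that fell most with 10000 µM acetaminophen, the treatment in which all tested members changed. Each line gives the 250 bases before the annotated transcript start, 5′ to 3′ on the strand of the gene, from the RefSeq promoter table of build GRCr8, in which 7 of the 9 members were found. *Bcl2l1* had 4 starts, and the most upstream is shown. Capitals mark matches, on either strand, to 6 motifs that were picked after the fold changes were known.
Pmaip1 chr18:62255720-62255969 (plus strand): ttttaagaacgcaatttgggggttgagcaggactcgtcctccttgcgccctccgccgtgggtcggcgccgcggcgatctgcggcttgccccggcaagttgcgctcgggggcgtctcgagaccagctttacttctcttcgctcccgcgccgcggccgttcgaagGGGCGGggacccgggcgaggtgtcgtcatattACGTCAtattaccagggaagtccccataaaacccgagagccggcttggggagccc
Bcl2l11 chr3:135819792-135820041 (plus strand): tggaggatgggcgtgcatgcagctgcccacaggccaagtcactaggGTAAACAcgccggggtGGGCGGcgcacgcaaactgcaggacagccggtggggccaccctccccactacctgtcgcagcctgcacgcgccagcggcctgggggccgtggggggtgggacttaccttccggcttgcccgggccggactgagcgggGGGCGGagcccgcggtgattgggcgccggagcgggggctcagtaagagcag
Mcl1 chr2:185907918-185908167 (plus strand): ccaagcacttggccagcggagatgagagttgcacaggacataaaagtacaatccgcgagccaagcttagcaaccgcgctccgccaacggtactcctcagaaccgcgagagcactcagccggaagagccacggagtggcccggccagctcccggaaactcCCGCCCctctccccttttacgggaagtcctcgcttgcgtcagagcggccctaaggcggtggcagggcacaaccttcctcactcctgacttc
Bcl2l1 chr3:161764776-161765025 (minus strand): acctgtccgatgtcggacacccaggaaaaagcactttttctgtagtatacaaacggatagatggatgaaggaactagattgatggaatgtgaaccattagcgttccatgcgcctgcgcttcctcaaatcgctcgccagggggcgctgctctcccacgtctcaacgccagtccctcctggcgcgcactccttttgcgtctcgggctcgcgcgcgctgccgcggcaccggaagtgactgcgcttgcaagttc
The letters TGACGT, the core of a CRE or ATF site, were found in the *Pmaip1* window only, on the minus strand, 55 bases before the start, and in 6.95% of all 33469 windows of this length. The forkhead core GTAAACA was found only in the *Bcl2l11* window, 204 bases before the start, against 3.21% of all windows. GC boxes (GGGCGG) were held by 6 of the 10 member windows and by 30.5% of all windows. No member window held an E-box (CACGTG, in 5.59% of all windows), a TATA box (TATAAA, in 12.9%) or the CHOP composite TGATGCAA (in 0.693%). These matches describe the letters only.

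The WT wells held 2289425 to 8975207 reads and the ST wells 558190 to 2210264 reads. The 6 hepatocyte markers summed to 28160 to 36630 CPM (counts scaled to the total of each well) in vehicle wells and to 5711 to 36710 CPM at the high concentrations, with the lowest sums under 400 µM diclofenac (5711 to 7718 CPM) and 4000 µM ranitidine (10410 to 15460 CPM). *Alb* was lower in 9 treatments and higher in 2 and *Apoa1* lower in 12 and higher in 0, whereas *Tat* was higher in 11 and lower in 6. The sum of the 6 Kupffer cell and leukocyte markers was 22.7 to 43.5 CPM in vehicle and 3.60 to 72.8 CPM at the high concentrations, lowest with 2 µM doxorubicin (3.60 to 7.71 CPM) and 10000 µM caffeine (5.38 to 13.7 CPM). Its genes moved apart, since *Cd163*, *Clec4f* and *Vsig4* were lower in 12, 11 and 13 treatments and higher in 0, whereas *Cd68* was higher in 9 and lower in 0. Stellate cell (4 measured markers), endothelial (5) and biliary (4) sums were at most 2.91, 3.37 and 49.0 CPM in vehicle, with *Epcam* at 27.3 to 44.3 CPM, and *Krt7* was at 0 in all vehicle wells. In such bulk lysates, fewer cells of a type and less RNA per cell cannot be told apart, and the part of these shifts in the results below was not tested.

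Each treatment was set against vehicle with edgeR's quasi-likelihood test over all tested genes, with batch as a term, and a gene was called where the adjusted p (Benjamini-Hochberg) was under 0.05. Log2 fold changes are scaled between wells by trimmed means (TMM) and carry a standard error (SE), while CPM are scaled by depth alone, so that they differ somewhat. Across 8 tested members and 28 treatments, 76 of 224 combinations were called, 37 of them higher and 39 lower. That is 33.9% of the combinations, close to the background of all 10191 genes, of which 30.5% were called per treatment on average (15.4% higher and 15.1% lower). The high concentrations held 65 of the calls, or 58.0% of 112 combinations, against a background of 51.4%. At the low concentrations 11 were called, or 9.82%, against 9.62%. A call was backed by each batch alone, in the same direction, for 43 combinations, or 19.2%, where the background was 16%. The members were thus called about as often as other genes, and they differed in direction: *Pmaip1* was higher in 9 treatments and lower in 0, *Casp8* lower in 5 and higher in 0, and *Bak1* lower in 12 and higher in 2. *Bcl2l1* was higher in 7 and lower in 5, *Bcl2l11* higher in 7 and lower in 7, *Bmf* higher in 3 and lower in 7, *Bid* higher in 5 and lower in 2, and *Mcl1* higher in 4 and lower in 1. The median tested gene was called in 8 of the 28 treatments.

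**Figure D1:**
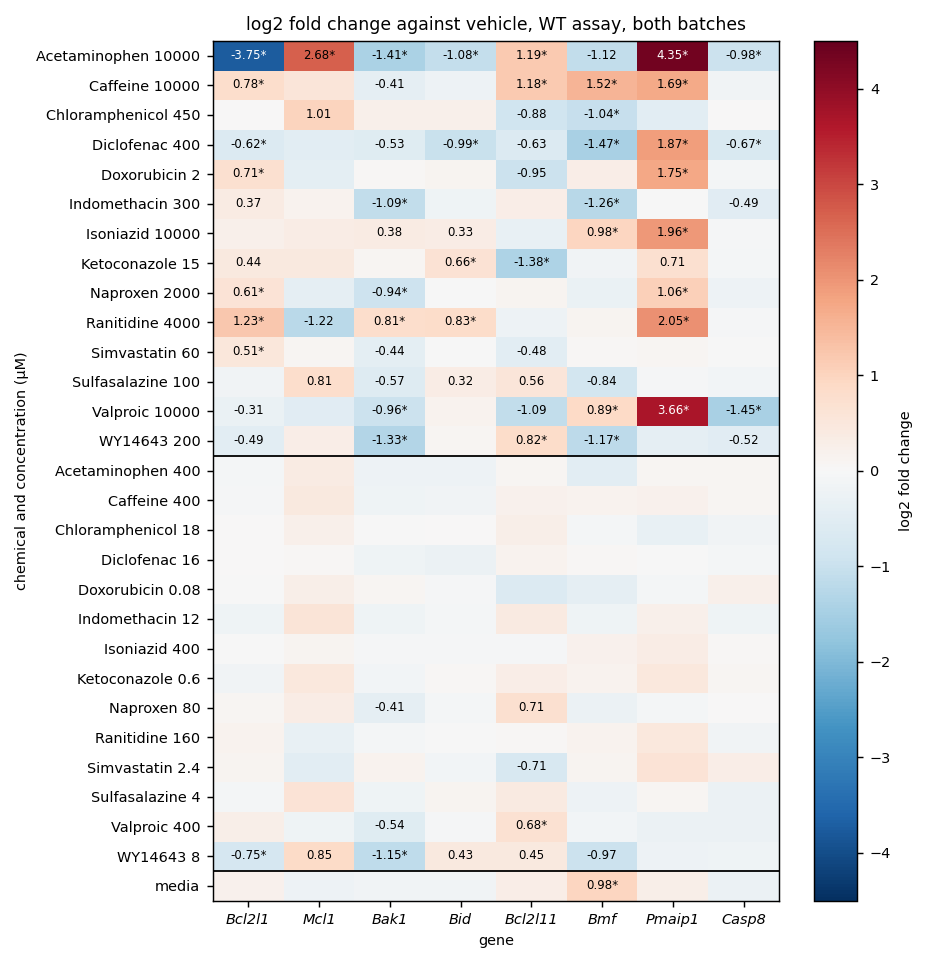
Log2 fold change against vehicle of the 8 tested members (columns) in the 28 treatments and media (rows, µM, where high concentrations, low concentrations and media are separated by lines), WT assay, both batches in one fit. Numbers are printed where the adjusted p was under 0.05, with an asterisk where each batch alone gave the same call. The range runs from −3.75 (*Bcl2l1*) to 4.35 (*Pmaip1*), both with 10000 µM acetaminophen, and 11 of 112 combinations are numbered among the low concentrations.

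Of the guardians, *Bcl2l1* showed the largest fall among the 8 tested members. Its probe measured 132, 172 and 147 CPM in the vehicle wells of batch 1 and 165 to 188 CPM (median 184 CPM) in those of batch 2. Acetaminophen at 10000 µM gave 10.2, 8.76 and 9.06 CPM in batch 1 and 9.28, 11.7 and 6.53 CPM in batch 2. All 6 wells lay far below the lowest vehicle well, and the log2 fold change was −3.75 (SE 0.16, edgeR adjusted p = 1.9e-52), with 1.83% of the 10191 genes at or below it. The opposite was seen with 4000 µM ranitidine, where the wells held 327, 342 and 318 CPM in batch 1 and 393, 329 and 414 CPM in batch 2, all above every vehicle well. This was a rise of 1.22 (SE 0.12, edgeR adjusted p = 3.0e-18). Rises called in each batch were also seen with 10000 µM caffeine (0.78), 2 µM doxorubicin (0.71), 2000 µM naproxen (0.61) and 60 µM simvastatin (0.51). Rises with 15 µM ketoconazole (0.44) and 300 µM indomethacin (0.37) were not called in each batch, and the latter was lost with depth alone (0.22, edgeR adjusted p = 0.10). *Bcl2l1* fell by 0.75 with 8 µM WY14643 and by 0.62 with 400 µM diclofenac, again in each batch. With 200 µM WY14643 (−0.49) the fall was not called in each batch, nor with 10000 µM Valproic (−0.31), which was lost without the scaling factor between wells (−0.04, adjusted p = 0.75 by edgeR).

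*Mcl1* moved against *Bcl2l1* in the 2 treatments where *Bcl2l1* changed most. Vehicle wells held 38.8, 26.0 and 51.4 CPM of *Mcl1* in batch 1 and 14.0 to 34 CPM (median 30.2 CPM) in batch 2. Under 10000 µM acetaminophen the wells held 257, 166 and 151 CPM in batch 1 and 159, 78.3 and 129 CPM in batch 2, all above the vehicle wells. The log2 fold change was 2.68 (SE 0.32, edgeR adjusted p = 6.5e-14). With 4000 µM ranitidine, *Mcl1* was at 11.4, 3.91 and 8.70 CPM in batch 1, below all vehicle wells, and at 10.0, 32.3 and 8.36 CPM in batch 2, where 1 well lay among the vehicle wells. It fell by 1.22 (SE 0.37, edgeR adjusted p = 0.0022) with both batches together, by 2.10 in batch 1 and by 0.65 in batch 2, and batch 2 alone did not pass the threshold. Without replicate 3 the fall was at −0.89 (edgeR adjusted p = 0.072). Rises with 450 µM chloramphenicol (1.01), 8 µM WY14643 (0.85) and 100 µM sulfasalazine (0.81) were not called in each batch and likewise did not hold when some replicates were left out. All of these chemicals, and acetaminophen, were on the plate of batch 1 that held no vehicle well. The wells of one treatment differed more for *Mcl1* than for any other tested member: the SD of log2 CPM around the group mean was 0.58, against 0.14 (*Bak1*) to 0.29 (*Pmaip1*). The same wells stood high or low in the ST assay of the same lysates, with a Pearson correlation of 0.91 between the deviations in the 2 assays over all wells, which share their lysates, whereas the other 6 members with ST probes had values between −0.11 (*Bmf*) and 0.38 (*Bak1*). In the media wells of batch 2, for example, *Mcl1* ranged from 6.47 to 37.4 CPM in the WT assay, and the lowest and highest well were the same in the ST assay, at 32.3 and 154 CPM.

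A ratio of *Bcl2l1* to *Mcl1* counts within a well needs no scaling between wells, though its size depends on both probes. It was 2.85 to 6.59 in the vehicle wells of batch 1 and 4.93 to 13.5 in those of batch 2. With 10000 µM acetaminophen it was 0.040 to 0.060 in batch 1 and 0.051 to 0.15 in batch 2. With 4000 µM ranitidine the ratio was 28.7 to 87.6 in batch 1 and 10.2 to 49.5 in batch 2, the lowest of these lying among the vehicle wells of its batch. Over the means of the 30 conditions, the log2 CPM of these genes had a Pearson correlation of −0.74 (−0.73 in batch 1 and −0.62 in batch 2), given as a description.

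**Figure D2:**
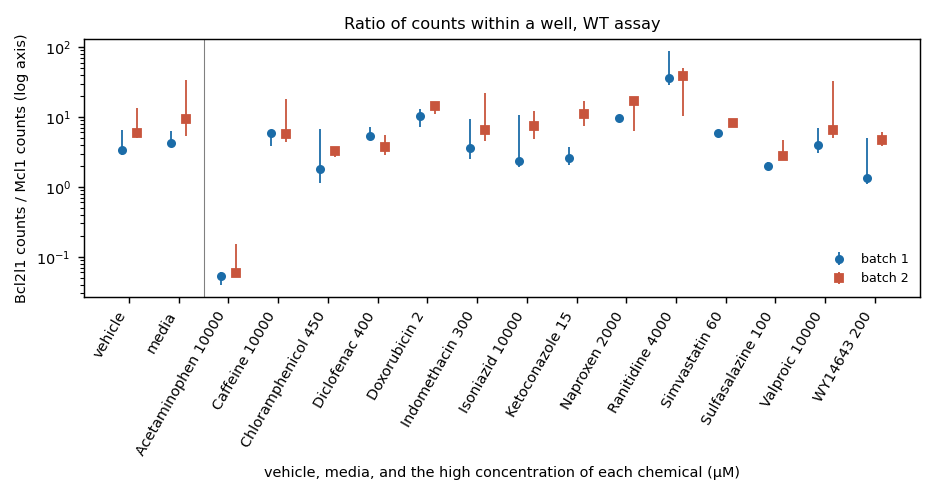
Counts of *Bcl2l1* divided by counts of *Mcl1* in a well (log axis) for vehicle, media and the high concentration of each chemical (µM), WT assay. Points are medians and bars the lowest and highest of 3 wells (6 for vehicle and media in batch 2), with circles for batch 1 and squares for batch 2. The acetaminophen wells (0.040 to 0.15) stand apart below all others, and the ranitidine medians, 36.6 and 39.2, are the highest of each batch.

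The effector *Bak1* was mostly lower. Vehicle wells held 50.3, 46.2 and 41.1 CPM in batch 1 and 32.8 to 44.4 CPM (median 41.7 CPM) in batch 2. The largest fall, by 1.41 (SE 0.12, edgeR adjusted p = 5.3e-22), was seen with 10000 µM acetaminophen, where the wells held 14.6, 16.6 and 14.3 CPM in batch 1 and 7.44, 11.2 and 12.7 CPM in batch 2. WY14643, an agonist of the nuclear receptor PPARα, gave 17.9, 17.4 and 18.4 CPM in batch 1 and 11.1, 12.2 and 15.4 CPM in batch 2 at 200 µM, a log2 fold change of −1.33 (SE 0.12). At 8 µM the change was −1.15 (SE 0.12), so that the fall was also present at the low concentration. In each of these the treated wells lay below all vehicle wells of their batch. *Bak1* also fell in each batch with 300 µM indomethacin (−1.09), 10000 µM Valproic (−0.96) and 2000 µM naproxen (−0.94). It was higher with 4000 µM ranitidine, at 95.8 to 109 CPM in batch 1 and 55.3, 51.2 and 52.8 CPM in batch 2, all above vehicle, by 0.81 (SE 0.11, edgeR adjusted p = 9.2e-12). Isoniazid at 10000 µM gave the only other rise (0.38), which was not called in each batch.

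Among the BH3-only proteins, *Bid* had log2 fold changes between −1.08 and 0.83. Its vehicle wells held 17.5, 16.7 and 17.7 CPM in batch 1 and 11.9 to 21.2 CPM (median 15.9 CPM) in batch 2. It fell with 10000 µM acetaminophen, to 3.85, 6.15 and 5.03 CPM in batch 1 and 5.96, 6.28 and 6.76 CPM in batch 2 (log2 fold change −1.08, SE 0.13), and with 400 µM diclofenac (−0.99, SE 0.12). In both the treated wells lay below all vehicle wells of their batch. *Bid* rose with 4000 µM ranitidine (0.83, SE 0.10), where all wells, at 24.6 to 27.3 CPM in batch 1 and 28.3 to 32.7 CPM in batch 2, lay above vehicle. With 15 µM ketoconazole (0.66, SE 0.10) 1 well of batch 2, at 19.5 CPM, lay within the vehicle range. The rise with 8 µM WY14643 (0.43) was lost without the scaling factor (0.16, edgeR adjusted p = 0.23).

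*Bcl2l11*, which encodes BIM, was called higher in 7 treatments and lower in 7 with both batches together, but the batches leaned apart, with 8 higher and 1 lower in batch 1 alone and 5 higher and 9 lower in batch 2 alone. Its vehicle level differed between the batches, at 9.20, 11.1 and 8.57 CPM in batch 1 and 18.0 to 28 CPM (median 25.8 CPM) in batch 2. It rose with 10000 µM acetaminophen to 26.9, 19.2 and 25.0 CPM in batch 1, all above vehicle, and to 41.9, 39.1 and 23.3 CPM in batch 2, the last within the vehicle range (log2 fold change 1.19, SE 0.17, edgeR adjusted p = 3.0e-10). Caffeine at 10000 µM raised it by 1.18 (SE 0.17), to 24.7, 19.3 and 28.6 CPM in batch 1 and 42.6, 54.6 and 46.7 CPM in batch 2, all above vehicle. The largest fall, by 1.38 (SE 0.21, edgeR adjusted p = 2.8e-09), was seen with 15 µM ketoconazole, at 4.52, 4.00 and 5.54 CPM in batch 1 and 8.11, 6.99 and 9.26 CPM in batch 2, all below vehicle. Falls with 10000 µM Valproic (−1.09), 2 µM doxorubicin (−0.95) and 450 µM chloramphenicol (−0.88) were not called in each batch. Valproic differed in direction between its concentrations, with a rise of 0.68 at 400 µM, called in each batch, and the difference of the high from the low concentration was −1.77 (SE 0.21). With WY14643, *Bcl2l11* rose by 0.82 at 200 µM, in each batch.

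*Bmf* was the single tested member called between media and vehicle in the WT assay. It measured 6.05, 5.46 and 4.64 CPM in the vehicle wells of batch 1 and 7.21 to 11.7 CPM (median 8.20 CPM) in those of batch 2, against 12.1, 10.9 and 8.02 CPM and 13.1 to 19.4 CPM (median 15.4 CPM) in media. All media wells lay above the vehicle wells of their batch, with a log2 fold change of 0.98 (SE 0.14, edgeR adjusted p = 1.1e-08), where 13% of all genes were called. With 10000 µM caffeine, *Bmf* rose by 1.52 (SE 0.15, edgeR adjusted p = 2.1e-18), to 12.2, 11.6 and 15.4 CPM in batch 1 and 26.7, 24.1 and 25.2 CPM in batch 2, all above vehicle. Isoniazid (0.98) and Valproic (0.89) at 10000 µM also raised it in each batch. It fell with 400 µM diclofenac by 1.47 (SE 0.20), to 2.97, 3.71 and 1.54 CPM in batch 1 and 3.30, 2.22 and 3.52 CPM in batch 2. Lower values in each batch were further seen with 300 µM indomethacin (−1.26), 200 µM WY14643 (−1.17) and 450 µM chloramphenicol (−1.04).

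*Pmaip1*, which encodes NOXA, a BH3-only protein that binds MCL1, gave the largest rise among the members. In vehicle it was at 2.30, 1.82 and 3.93 CPM in batch 1 and 1.03 to 2.67 CPM (median 2.01 CPM) in batch 2. Under 10000 µM acetaminophen it reached 37.6, 44.7 and 44.3 CPM in batch 1 and 23.9, 26.8 and 33.0 CPM in batch 2. The log2 fold change was 4.35 (SE 0.18, edgeR adjusted p = 1.9e-52), the 46th highest of 10191 genes. With 10000 µM Valproic it was at 31.0, 29.5 and 30.9 CPM in batch 1 and 44.1, 36.1 and 31.6 CPM in batch 2, a rise of 3.66 (SE 0.19, edgeR adjusted p = 1.0e-42) and the 60th highest. In these 2 treatments every well lay far above the vehicle wells.

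Other chemicals, 5 in number, gave *Pmaip1* rises between 1.69 and 2.05 at the high concentration. Ranitidine at 4000 µM gave 8.68, 8.88 and 7.87 CPM in batch 1 and 7.91, 9.33 and 9.74 CPM in batch 2, a rise of 2.05 (SE 0.21). Isoniazid at 10000 µM gave 9.59, 8.82 and 8.61 CPM and 9.17, 8.53 and 9.42 CPM, a rise of 1.96 (SE 0.22). Among the 10191 genes this was the 26th highest with isoniazid. Diclofenac at 400 µM raised it by 1.87 and doxorubicin at 2 µM by 1.75, with all wells above vehicle in both batches. The rise with doxorubicin was the 34th highest of all genes in that treatment. With 10000 µM caffeine (1.69) the wells held 3.48, 7.70 and 3.43 CPM in batch 1, overlapping vehicle, and 12.8, 4.19 and 6.95 CPM in batch 2, above vehicle. Naproxen at 2000 µM (1.06) and ketoconazole at 15 µM (0.71) gave smaller rises, the latter not called in batch 1 alone. None of the 14 low concentrations passed the threshold for *Pmaip1*, and its high concentration lay above the low one for 8 chemicals.

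**Figure D3:**
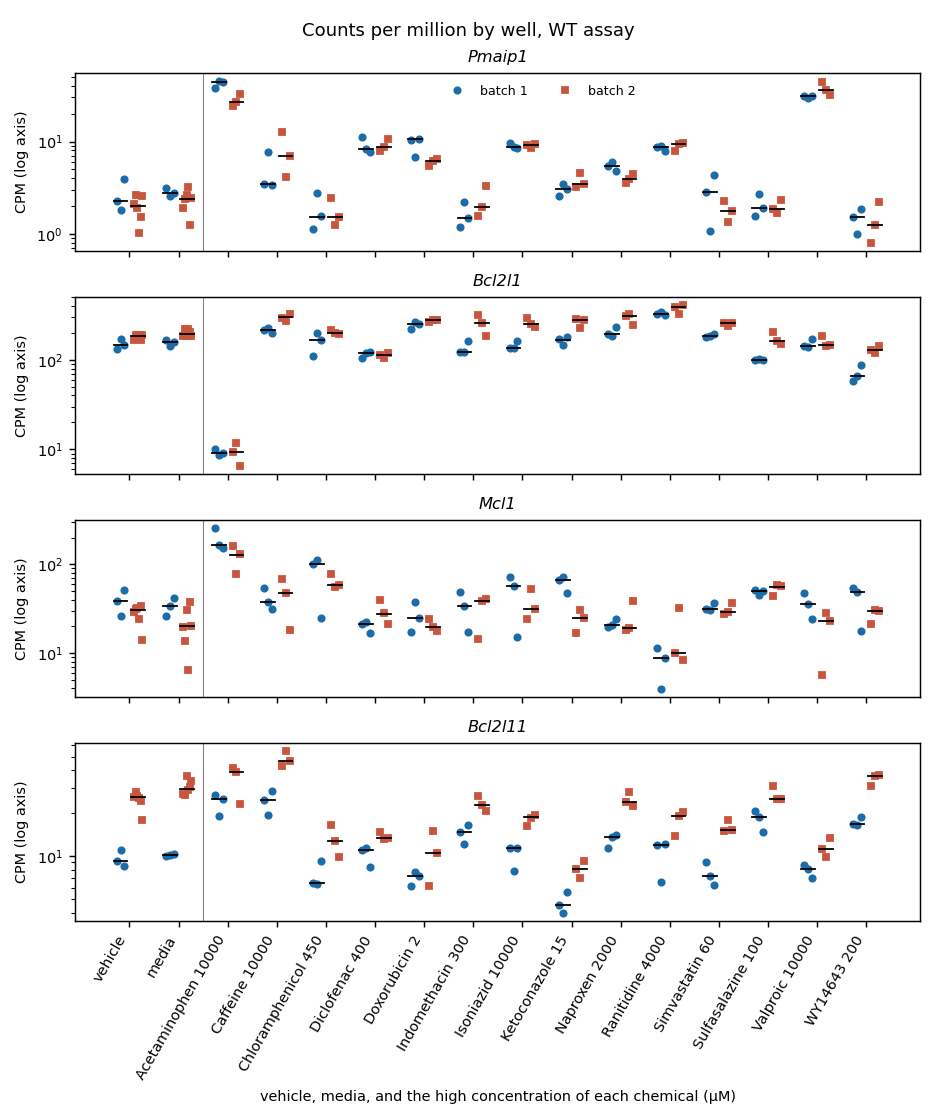
CPM in each well (log axes) of *Pmaip1*, *Bcl2l1*, *Mcl1* and *Bcl2l11* for vehicle, media and the high concentration of each chemical (µM), WT assay. Circles are batch 1, squares batch 2 and short lines the median of the wells. *Bcl2l1* with acetaminophen (6.53 to 11.7 CPM) and *Pmaip1* with acetaminophen and Valproic (23.9 to 44.7 CPM) are clear of all vehicle wells, the *Mcl1* wells of a group spread widely, and *Bcl2l11* is higher in the vehicle wells of batch 2 than of batch 1.

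*Bik* could not be tested at its depth with the filter on low counts. Its probe gave 2 to 8 counts in the vehicle wells. With 10000 µM Valproic, however, it gave 14, 15 and 19 counts in batch 1 and 18, 31 and 32 counts in batch 2, all above the vehicle wells. With 10000 µM acetaminophen it gave 0 counts in all 6 wells, so that it was at least 8.56-fold lower than in vehicle when 3 counts over the group are taken as the floor. A fit of all genes with at least 1 count gave a log2 fold change of 2.09 (SE 0.29, edgeR adjusted p = 8.1e-11) with Valproic and 1.36 (SE 0.34, edgeR adjusted p = 0.00032) with 4000 µM ranitidine, where the wells held 2.10, 1.95 and 1.84 CPM in batch 1, above vehicle, and 1.34, 0.837 and 1.26 CPM in batch 2, overlapping it. The same fit called 8 falls, with 10000 µM acetaminophen, 10000 µM caffeine, 400 µM diclofenac, 300 µM indomethacin, 2000 µM naproxen, 60 µM simvastatin and both concentrations of WY14643. At these counts the fitted size of a fall depends on the prior count of the fit. With 200 µM WY14643, for example, *Bik* gave 0 counts in all 3 wells of batch 1 and 1, 1 and 2 counts in batch 2.

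*Casp8* was lower or not called throughout. Vehicle wells held 9.44, 8.01 and 10.0 CPM in batch 1 and 8.64 to 12.8 CPM (median 10.0 CPM) in batch 2. It fell by 1.45 (SE 0.16, edgeR adjusted p = 1.1e-15) with 10000 µM Valproic, to 4.90, 3.10 and 5.74 CPM in batch 1 and 3.34, 4.15 and 5.12 CPM in batch 2. With 10000 µM acetaminophen it was at 3.57, 4.30 and 2.21 CPM and at 4.12, 4.62 and 3.15 CPM, a fall of 0.98 (SE 0.16). In both treatments the wells lay below all vehicle wells of their batch. The falls with 400 µM diclofenac (−0.67), 200 µM WY14643 (−0.52) and 300 µM indomethacin (−0.49) were smaller, and only that of diclofenac was called in each batch. Without replicate 3 the fall with 200 µM WY14643 was at −0.34 (edgeR adjusted p = 0.10). Treatments whose *Casp8* value did not pass the threshold ranged from −0.27 (400 µM Valproic) to 0.30 (2.4 µM simvastatin).

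By treatment, acetaminophen at 10000 µM changed all 8 tested members, 3 higher and 5 lower, in a background where 79.2% of all genes were called. The TMM scaling factors of its wells had the lowest median of any condition (range 0.714 to 0.842, against 1.01 to 1.07 in vehicle), and with depth alone the median of all genes moved by −0.41 on the log2 scale. All 8 calls were kept with depth alone, at 3.94 for *Pmaip1*, 2.27 for *Mcl1*, 0.79 for *Bcl2l11* and −4.15 for *Bcl2l1*. With 400 µM diclofenac 7 members were called against a background of 72.2%, *Pmaip1* being the only one that rose. With 10000 µM Valproic 6 were called (67.4% of all genes), and here the median scaling factor was the highest (range 1.15 to 1.33). Ranitidine at 4000 µM had 5 calls (66.6%), of which *Mcl1* was the single fall, and caffeine at 10000 µM had 5 calls (66.4%), of which *Bak1* was the single fall. WY14643 called 5 members at 200 µM (51.7%) and 6 at 8 µM (56.2%), with *Bcl2l1*, *Bak1*, *Bcl2l11* and *Bmf* called at both concentrations in the same direction. The scaling factors at 8 µM were 0.790 to 0.918, and with depth alone the 3 rises of that treatment were no longer called, at 0.57 for *Mcl1*, 0.16 for *Bid* and 0.18 for *Bcl2l11* (edgeR adjusted p = 0.13, 0.23 and 0.37), while the 3 falls were. Sulfasalazine at 100 µM called 5 (41.6%), none of them in each batch. With depth alone its rises of *Bid* (0.19) and *Mcl1* (0.68) were no longer called (edgeR adjusted p = 0.15 and 0.088).

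Fewer members were called with the other high concentrations. Indomethacin at 300 µM (55.1% of all genes called), ketoconazole at 15 µM (51.9%) and isoniazid at 10000 µM (35.3%) had 4 calls each. Naproxen at 2000 µM (54.2%), chloramphenicol at 450 µM (34%), simvastatin at 60 µM (24.5%) and doxorubicin at 2 µM (20.2%) had 3 each. With isoniazid all 4 were rises, of *Bak1*, *Bid*, *Bmf* and *Pmaip1*, that of *Bid* (0.33) not being called without replicate 2 (edgeR adjusted p = 0.066). Among the low concentrations, apart from WY14643, members were called with Valproic at 400 µM (2 calls, 29.7% of all genes), naproxen at 80 µM (2, 16.6%) and simvastatin at 2.4 µM (1, 2.85%). No member was called with sulfasalazine at 4 µM (17.4% of all genes), indomethacin at 12 µM (6.22%), ketoconazole at 0.6 µM (1.91%), doxorubicin at 0.08 µM (1.58%), acetaminophen at 400 µM (1.56%), caffeine at 400 µM (0.265%), diclofenac at 16 µM (0.167%), chloramphenicol at 18 µM (0.0981%), ranitidine at 160 µM (0.0589%) or isoniazid at 400 µM (0.0294%). In batch 1, ketoconazole, WY14643, acetaminophen, indomethacin, sulfasalazine and chloramphenicol were on a plate with no vehicle well, so that plate and chemical cannot be told apart there. Both concentrations of each of these chemicals were on that plate.

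Set directly against the low concentration of the same chemical, the high one differed in 53 of 112 combinations, or 47.3%, against a background of 41.3%. It was above in 27 and below in 26. The largest differences were in *Pmaip1* with acetaminophen (4.27) and Valproic (3.92), *Bcl2l1* with acetaminophen (−3.66) and *Mcl1* with acetaminophen (2.30). For *Bcl2l1* the high concentration was above the low one for 7 chemicals and below for 3, and for *Bak1* above for 2 and below for 7.

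The batches were next analysed separately. Batch 1 alone gave 52 calls (23.2%, background 20.4%) and batch 2 alone 74 (33.0%, background 28.2%). Of the 76 combinations called with both batches together, 74 had the same sign in each, and the fold change was larger in size in batch 2 for 52. *Bak1* with 10000 µM caffeine and *Bcl2l11* with 400 µM diclofenac had opposite signs, with batch 1 close to 0. The difference between the batches itself was called in 9 of 224 combinations (4.02%, background 2.47%), 4 of them in *Bak1* and 3 in *Bcl2l11*. For *Bak1* with 10000 µM Valproic the log2 fold change was −0.42 in batch 1 and −1.37 in batch 2 (edgeR adjusted p of the difference = 0.00024), and with 4000 µM ranitidine 1.30 and 0.47 (0.00044). The count of 9 fell to 2, 6 and 3 without replicates 1, 2 and 3, respectively.

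**Figure D4:**
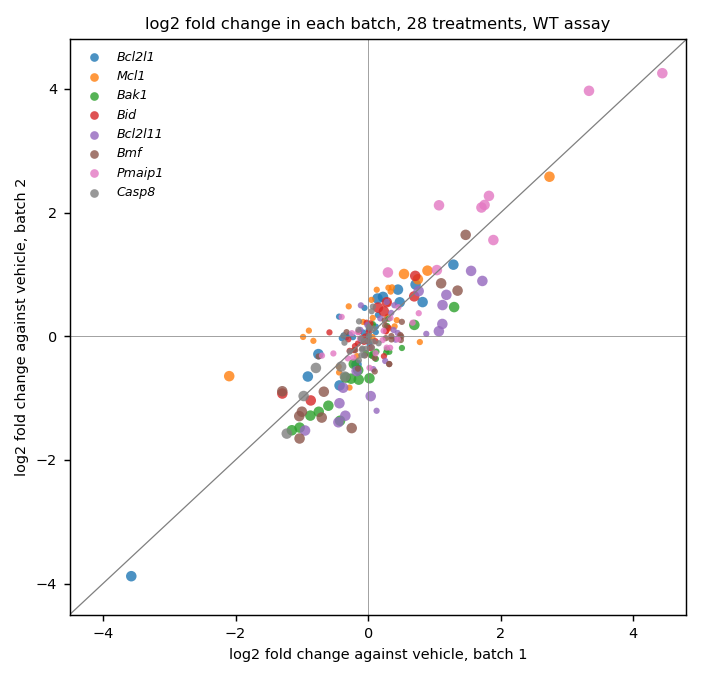
Log2 fold change against vehicle in batch 1 (horizontal) and batch 2 (vertical) for the 8 tested members in 28 treatments, WT assay, coloured by gene, where larger points were called with both batches together, and the grey diagonal marks equal values. Of the 76 larger points 74 lie in a quadrant of equal sign, with *Pmaip1* reaching 4.44 and 4.25 and *Bcl2l1* −3.57 and −3.88 with 10000 µM acetaminophen.

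The ST assay, run on the same lysates, is a technical repeat. It called 78 of 196 combinations (39.8%, background 35.1%), 28 higher and 50 lower. The 67 calls that the WT assay made on the 7 shared members all had the same sign in the ST assay, and 60 of them were called there too. With 10000 µM acetaminophen the ST values were −3.46 for *Bcl2l1*, 2.62 for *Mcl1* and 1.47 for *Bcl2l11*, and with 4000 µM ranitidine they were 0.98 for *Bcl2l1* and −1.25 for *Mcl1* (log2 fold changes). *Casp8* was lower in 12 treatments in the ST assay against 5 in the WT assay. In batch 2 the ST media wells of *Casp8* (9.33 to 17.3 CPM) also lay below all vehicle wells (19.7 to 32.7 CPM). The media wells of batch 1 overlapped vehicle.

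**Figure D5:**
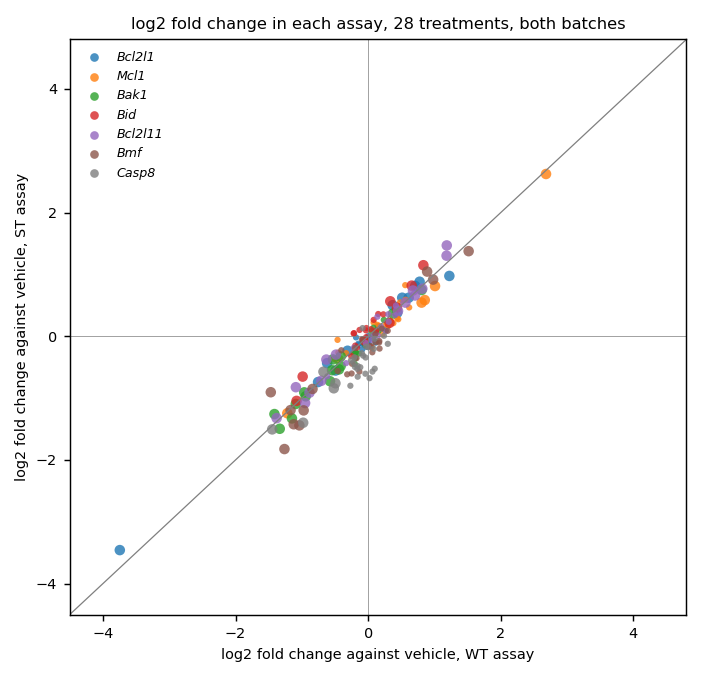
Log2 fold change against vehicle in the WT assay (horizontal) and the ST assay (vertical) for the 7 members on both, in 28 treatments, both batches together, where larger points were called in the WT assay and the grey diagonal marks equal values. All 67 larger points have the same sign in the 2 assays, from −3.75 and −3.46 (*Bcl2l1*) to 2.68 and 2.62 (*Mcl1*), both with 10000 µM acetaminophen.

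The rest of the apoptosis pathway was followed through a list of 47 other genes in 11 roles, of which 34 were tested. They gave 130 higher and 154 lower calls in 952 combinations, where 30.5% of all genes and treatments were called. Of the other guardians, *Bcl2* was lower in 11 treatments and higher in 1, falling by 1.72 with 10000 µM caffeine (SE 0.16), and *Bcl2l2* (BCL-w) was higher in 6 and lower in 4, with its largest rise, 0.84, with 2000 µM naproxen. *Bcl2a1* ranged from −2.59 with caffeine to 2.43 with Valproic, both at 10000 µM. The effector *Bax* was higher in 6 and lower in 7, and like *Bak1* had its lowest value with acetaminophen (−1.24) and its highest with ranitidine (0.74). *Bad*, the other BH3-only gene tested, was higher in 1 and lower in 4. The mitophagy receptors *Bnip3* and *Bnip3l* were each higher in 9 treatments and lower in 3 and 2, with 2.09 for *Bnip3* under 4000 µM ranitidine, and *Bcl2l14* rose by 2.33 with 8 µM WY14643.

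Of the other caspases, *Casp6* was lower in 8 treatments and higher in 3, with its lowest value, −1.36, under 10000 µM acetaminophen. *Apaf1*, the scaffold of the apoptosome, was lower in 14 treatments and higher in 1, with −2.46 and −2.40 under 200 µM WY14643 and 300 µM indomethacin. Among the inhibitors of apoptosis, *Xiap* was lower in 15 and higher in 1 and *Birc2* higher in 9 and lower in 0, and *Birc3* was split 5 to 5. *Diablo* (SMAC), which displaces such inhibitors, was higher in 9 and lower in 1, and of the other mitochondrial factors *Endog* was higher in 5 and lower in 4 and *Aifm1* higher in 4 and lower in 5. The death receptors *Fas* and *Tnfrsf1a* were lower in 6 and 7 treatments and higher in 0 and 2. Of the genes acting with caspase-8, *Cflar* (FLIP) was higher in 8 and lower in 3, *Ripk1* higher in 6 and lower in 3 and *Traf2* higher in 2 and lower in 3. The caspase substrates *Dffa*, *Dffb* and *Parp1* were higher in 7, 1 and 1 treatments and lower in 1, 1 and 5.

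The genes whose condition means were most like those of a member are given as a description. Likeness was the Pearson correlation of log2 CPM over 30 condition means, centred in each batch and averaged. For *Pmaip1* they were *Cd55* (0.94, with 0.89 in batch 1 and 0.93 in batch 2) and *Opn3* (0.92, with 0.89 and 0.91). For *Bcl2l1* they were *Pacsin3* (0.92, with 0.89 and 0.90) and *Stx17* (0.92, with 0.90 and 0.90), for *Mcl1* *Zfp207* (0.95, with 0.94 and 0.93) and *Nufip2* (0.92, with 0.93 and 0.89), and for *Bak1* *Tpm4* (0.94, with 0.95 and 0.87) and *Triobp* (0.93, with 0.90 and 0.89). *Casp8* was most like *Nmi* (0.89, with 0.86 and 0.87) and *Tgif1* (0.88, with 0.89 and 0.83). Values were lower for *Bid* (*Vti1b*, 0.86, with 0.85 and 0.72; *Ndufb8*, 0.83, with 0.76 and 0.67), *Bmf* (*Ypel2*, 0.83, with 0.78 and 0.82; *Btg2*, 0.82, with 0.76 and 0.77) and *Bcl2l11* (*Mcm10*, 0.76, with 0.80 and 0.57; *Ldlrad1*, 0.74, with 0.64 and 0.69). Between members, the closest pair was *Bak1* and *Casp8* (0.76, with 0.65 and 0.79), and *Pmaip1* ran most against *Casp8* (−0.57, with −0.59 and −0.51).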

How the data were processed

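Lysates of primary rat hepatocytes were run by the TempO-Seq WT and ST assays. The authors aligned the reads to rn6 with STAR 2.5.3a (per the submitters' processing notes) and deposited raw counts per probe and well, with no normalization. Probes of one gene were to be added, but each member had 1 probe. CPM are counts scaled to the total of the well. Testing, for genes averaging 10 or more counts, used edgeR 4.0.16 (R 4.3.3), TMM factors and the quasi-likelihood test (glmQLFit without the legacy option), with terms for condition and batch over all wells, and Benjamini-Hochberg adjustment over all genes per comparison; a call is an adjusted p under 0.05. The SE is the size of the log2 fold change divided by the root of the F statistic. Fold changes use TMM factors and CPM do not, so they differ where the factors do. Batches were also fitted alone, and their difference was tested in a fit with a mean per batch and condition. The batch is the block: same-batch wells share 1 rat, per the labels and methods. Since wells are technical replicates and batch is a term of the fit, p-values rest mainly on the spread between wells. They do not measure the spread between rats, of which there were 2.

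The members and lists were chosen with earlier results of these data known. Treatments were named for a member when called with the same sign in both batches, up to 6 by size, with further values given where a count needed them; up to 3 genes were named per role, and 2 genes by likeness, with 1 added to the CPM before taking logs. *Bbc3*, *Hrk*, *Casp4*, *Casp12*, *Cycs* and *Tnfrsf10b* were not analysed here. Some genes that the rule would name are not reported here. The test was also run on counts simulated from the mean levels and depths of the WT wells, with each well drawn independently. These counts held a small, balanced set of changed genes and no difference between rats in the treatment effect. They therefore cannot check the replicate structure or the scaling between wells. Alternatives were RLE factors, no filter, DESeq2 1.42.0, a minimum fold change, other sets of wells and, added after seeing the data, depth alone.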

Additional observations from a re-analysis of the deposited data

Results flagged for a closer look

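For 9 combinations the log2 fold change differed between the batches (batch 2 minus batch 1, edgeR interaction, adjusted p under 0.05). In *Bak1* the differences were −0.70 with 10000 µM caffeine (0.02 in batch 1 and −0.68 in batch 2), −0.71 with 15 µM ketoconazole (0.51 and −0.19), −0.84 with 4000 µM ranitidine (1.30 and 0.47) and −0.96 with 10000 µM Valproic (−0.42 and −1.37). In *Bcl2l11* they were −0.99 with 400 µM diclofenac (0.04 and −0.97), −1.34 with 0.08 µM doxorubicin (0.13 and −1.21) and −0.96 with 10000 µM Valproic (−0.45 and −1.39). *Bcl2l1* differed by 0.79 with 18 µM chloramphenicol (−0.44 and 0.32) and *Bid* by 0.65 with 10000 µM caffeine (−0.58 and 0.06). Ketoconazole and chloramphenicol had no vehicle well on their plate in batch 1.

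In 32 groups of 6 wells, each member and assay taken separately, 2 wells stood apart by Dixon's test, where chance gives about 1 in 20 groups. Both were in the ST assay: the lowest media well of batch 2 for *Bcl2l1*, at 126 CPM with the next at 232 CPM, and the lowest vehicle well of batch 2 for *Mcl1*, at 68.1 CPM with the next at 114 CPM. In the WT assay the same vehicle well was also the lowest for *Mcl1*, at 14.0 CPM with the next at 24.1 CPM.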

How the results depend on the processing

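With RLE factors, DESeq2, no filter, depth alone or fits of only the wells compared, the 76 member calls became 76, 76, 83, 76 and 88. With no replicate block (no batch term), which sets aside that the wells of a batch are paired by rat, they became 62, the media call stayed at 1 and the 284 pathway calls became 250. Leaving out a replicate gave 68 to 71 member calls, and leaving out a vehicle well 74 to 77. A minimum absolute log2 fold change of 1 left 29 of 76 calls over the treatments, 0 of 1 in media, where *Bmf* stood at 0.98, 22 of 53 between concentrations, 29 of 52 in batch 1, 34 of 74 in batch 2, 1 of 9 for the batch difference, 22 of 78 in the ST assay and 59 of 284 in the pathway list. In media, a fit of only the wells compared gave 3 calls. The 9 batch differences became 2 to 6 without 1 replicate, 10 with RLE factors and 12 with DESeq2. Vehicle wells of the same plate alone gave 73 calls in batch 2 against 74. With depth alone 7 calls were lost and 7 gained, none with a change of sign.

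Of 46 member values named for their size, none changed sign. Of these, 39 stayed past the threshold in every alternative run other than the minimum fold change, which several of them do not reach. The exceptions were *Bid* with 10000 µM isoniazid, *Casp8* with 200 µM WY14643 and *Mcl1* with ranitidine, chloramphenicol, WY14643 and sulfasalazine, each of which was lost without 1 replicate, and *Bid* with 8 µM WY14643, lost with depth alone, as were *Mcl1* with 8 µM WY14643 (0.57) and with sulfasalazine (0.68). *Mcl1* with 8 µM WY14643 was at 0.34 (edgeR adjusted p = 0.49) without replicate 2, and with sulfasalazine it was also lost with no filter. The causes were not tested. Each member had 1 probe, so probes could not be compared, and the batch difference with no filter was not run. Depth limits *Bik* and, in vehicle, *Pmaip1*.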
